A study of Mus musculus with 36 samples.

Results

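The livers of mice given lipopolysaccharide (LPS) and then genipin were compared with the livers of mock mice, to describe what stayed away from mock despite genipin and what was new with it. LPS is the outer-membrane glycolipid of Gram-negative bacteria, and genipin is an iridoid compound obtained from gardenia fruit. The members were chosen by array title: 3 liver arrays of LPS plus genipin and 3 liver arrays of mock, or 6 of the 36 arrays of the series. The 3 liver arrays of LPS alone were used to tell a change that LPS already made from one that appeared with genipin.

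The mice were female, of the FVB strain, 6 to 8 weeks old, and carried a luciferase transgene whose promoter no label names, and all groups shared these features. Mock mice were untreated. The LPS dose was 4 mg/kg by the intraperitoneal route, with genipin 10 min after it and tissue collection 4 h later. The series describes 25 mice in 5 groups of 5, with genipin at 1, 10 or 100 mg/kg, and which of these doses the arrayed livers had received was not stated. Each array was hybridised with Cy5-labelled RNA. The labels do not tie arrays to mice. The p-values therefore reflect array-to-array spread alone, which may be technical.

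LPS is bound by the LPS-binding protein and CD14 and passed to the receptor complex of TLR4 and MD-2, from which one branch leads to NF-kB and inflammatory genes and another to type I interferon and the genes it induces. In the liver, Kupffer cells and endothelium respond first and hepatocytes then make acute-phase proteins while many genes of bile acid, drug and lipid metabolism are turned down. NRF2 is a transcription factor held by KEAP1 and released by reactive electrophiles, and it drives genes for glutathione, thioredoxin and NADPH.

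A value was the deposited intensity on a log2 scale with a floor at 262.7, the 5th percentile of all deposited values, and 8641 genes had a named probe measured in liver. A gene was called when limma's adjusted p was below 0.05, and it counted as away from mock when it was also at least 2-fold from mock. Array medians lay between 1252 and 1253, and log2 values correlated at 0.985 to 0.996 within groups and at 0.932 to 0.939 between LPS plus genipin and mock arrays. Probes at 60000 or above on all arrays of a group were treated as saturated and, like probes at the floor, give only a bound on a fold. Of 8 hepatocyte markers measured, 4 were saturated in both groups, among them albumin (Alb), and 1 was called, Apob, which was higher. In RNA from whole liver, fewer cells of a type and less RNA per cell cannot be told apart.

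With LPS plus genipin, 5224 of 8641 liver genes (60.5%) were called against mock, 2437 higher (28.2%) and 2787 lower (32.3%). Each count of list members below is to be read beside these shares. The LPS plus genipin and mock arrays did not overlap for 68.8% of genes. Genes at least 2-fold from mock numbered 899 (10.4%), with 552 higher (6.39%) and 347 lower (4.02%). Of these, 779 (86.7%) were called in the same direction with LPS alone and are described as staying away. Another 117 were new: either not called with LPS alone (87 genes) or called in the opposite direction there (30 genes), and called against LPS. The remaining 3, Eif3j1, Bcl2l2 and Ap3m1, met neither definition, and were chosen after their values were seen.

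Among the 779 genes that stayed away, 271 were called closer to mock than with LPS alone, 247 were called further from mock, and 261 were not called between the treated groups. The genes further from mock were mostly higher than mock (189 of 247), those back toward mock split into 167 higher and 104 lower, and the new genes into 57 higher and 60 lower. These comparisons share arrays: LPS plus genipin and LPS were set against the same mock arrays. Over all genes 65.9% were called between LPS and mock (29.2% higher, 36.7% lower), and 54.0% between LPS plus genipin and LPS (29.3% higher, 24.8% lower). Seen from LPS, 1343 genes (15.5% of those tested) were at least 2-fold from mock with LPS alone. With genipin, 556 of them were still called at least 2-fold in the same direction, 552 were called in that direction under 2-fold, 197 were not called and 38 were called in the opposite direction.

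**Figure D1:**
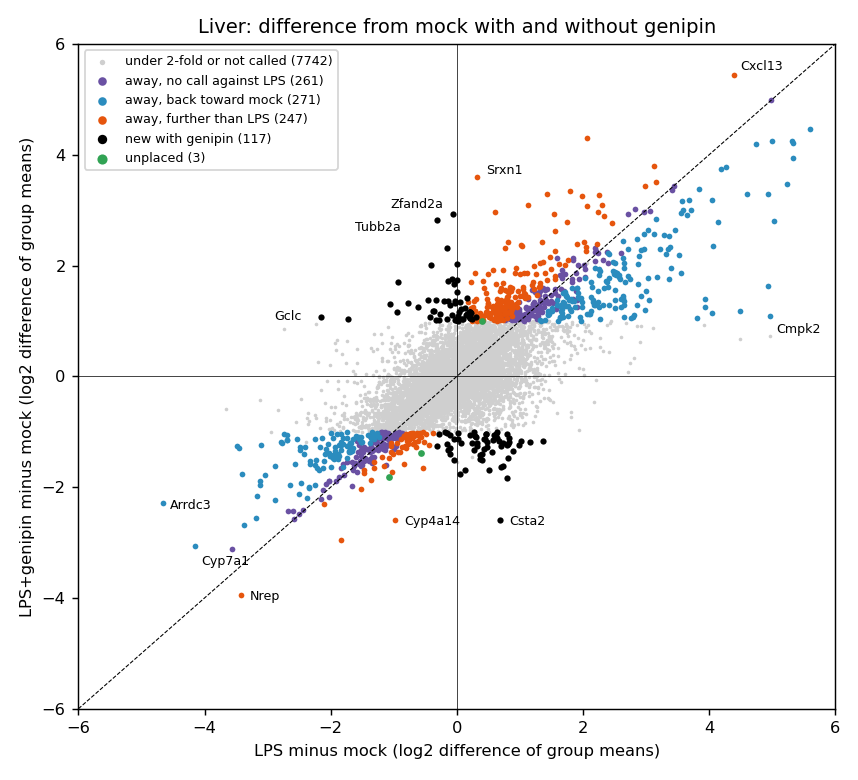
Each point is 1 liver gene, with the log2 difference of LPS from mock on the horizontal axis and of LPS plus genipin from mock on the vertical axis; the dashed line marks equal differences and the colours mark the classes, with their numbers of genes. The 261 genes not called between treated groups lie along the dashed line, the 271 back toward mock lie between it and the horizontal axis, and the 117 new genes lie near or across the vertical axis.

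The largest measured rise was that of Cxcl13, the chemokine that draws B cells. Cxcl13 read 554, 572 and 537 on the mock arrays, 12840, 12149 and 10223 with LPS, and 23366, 25649 and 23145 with LPS plus genipin. The genipin arrays thus lay above every LPS array as well as every mock array. The rise over mock was 43.3-fold (log2 5.44 ± 0.088 SE, adjusted p = 9.96e-09), and Cxcl13 was 2.06-fold above LPS alone (adjusted p = 4.96e-05). Saa3, an acute-phase serum amyloid A protein, read 2126, 2095 and 1982 in mock livers and was saturated in both treated groups, which puts it at least 31.7-fold above mock and gives no order between the treatments.

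Genes of LPS recognition and Toll-like receptor signalling stayed high: 11 of 18 measured genes were called higher than mock and none lower, with a median log2 difference of 0.79 against −0.05 over all liver genes. Cd14, the LPS co-receptor, read 1362, 1359 and 1344 in mock livers and 30232, 29422 and 29760 with LPS plus genipin, and it was saturated on each LPS array. Its log2 difference from mock was 4.46 ± 0.035 SE (adjusted p = 2.28e-10), and it was at least 2.20-fold below LPS alone. Tlr2, the receptor of bacterial lipoproteins, read 263, 299 and 263, then 5297, 5237 and 5129, a rise of 19.0-fold (adjusted p = 3.12e-08), with 8864, 9847 and 7594 under LPS alone. The mock arrays of Tlr2 were at or near the floor, so this fold is a lower bound. Tifa, an adaptor that links to TRAF6, was 18.6-fold above mock and Map3k8, a kinase upstream of ERK, 3.90-fold. Of the 8 genes of this list that stayed at least 2-fold away, 7 were back toward mock relative to LPS. The exception was Ly96, which encodes MD-2, with a log2 difference from mock of 1.92 with genipin and 0.57 without. Tlr4 itself was not called (log2 −0.25 ± 0.19 SE, adjusted p = 0.284) and was at the floor in all 3 genipin arrays. Ly96, Tlr4 and, among the genes of NF-kB, Rela were chosen after their values were seen.

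Of 15 NF-kB subunits and feedback inhibitors measured, 13 were called higher than mock and none lower; the median log2 difference was 1.32 with genipin and 1.37 with LPS alone, each against the same mock arrays. Nfkb2, which encodes the p100 precursor, read 676, 670 and 661 in mock livers, 3225, 3043 and 2908 with LPS, and 3328, 3508 and 3186 with genipin. The treated groups overlapped, and their difference did not pass the test (log2 0.13 ± 0.055 SE, adjusted p = 0.0834). Bcl3, an atypical inhibitor of the family, was 4.74-fold over mock (adjusted p = 1.27e-07), with an adjusted p of 0.11 against LPS. Tnfaip3, the ubiquitin-editing inhibitor A20, was 13.3-fold above mock and was called 1.37-fold below LPS. Tnip1, a partner of A20, was 4.49-fold above mock, and Rela, the p65 subunit, was further from mock with genipin (log2 1.93) than without (1.49).

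**Figure D2:**
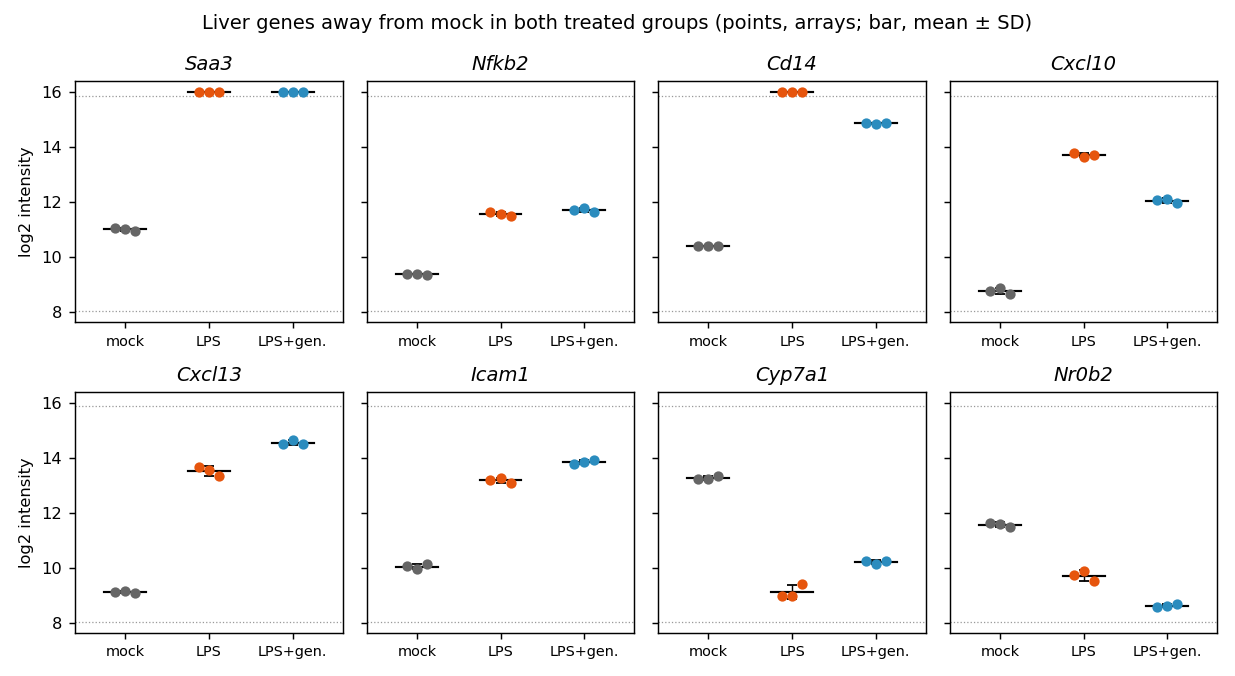
log2 intensity of 8 liver genes that stayed away from mock, with 1 point per array, the mean as a bar and the SD as whiskers for mock, LPS and LPS plus genipin; dotted lines mark the floor of 262.7 and the saturation limit of 60000. Saa3 is at the upper limit in both treated groups, Nfkb2 is level between them, Cd14 and Cxcl10 step back with genipin, Cxcl13 and Icam1 step further up, Cyp7a1 recovers in part and Nr0b2 falls further.

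Of 9 CXC chemokines measured, 6 were called higher than mock and 1 lower, and 7 were called lower than with LPS. Cxcl10, an interferon-induced attractant of T cells, read 433, 476 and 406 in mock livers, 14082, 12705 and 13312 with LPS, and 4372, 4407 and 4011 with genipin. No group overlapped another, and Cxcl10 was 9.74-fold above mock (adjusted p = 2.88e-08) and 3.14-fold below LPS. Cxcl9, which binds the same receptor, was 15.3-fold above mock and at least 2.62-fold below its saturated LPS level, and a dimmer probe of the gene gave 29.8-fold above mock. Cxcl1, a neutrophil attractant, was 4.61-fold above mock. Among 6 CC chemokines, Ccl5 (RANTES) was the only one called higher, 19.1-fold over mock (adjusted p = 1.02e-09) and 2.07-fold below LPS. Its mock arrays read 281, 263 and 263, at or near the floor, so the fold over mock is a lower bound. Ccl24, an eosinophil attractant, was 3.14-fold below mock, with genipin arrays near the floor at 270, 312 and 279. Ccl6 was called 1.37-fold below mock although it was called higher with LPS alone. Ccl9 was not called against mock (log2 −0.12, adjusted p = 0.132).

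Il1b, the gene of interleukin 1 beta, read 1011, 1095 and 940 in mock livers, 9573, 11024 and 10625 with LPS, and 5832, 5861 and 5861 with genipin, and so remained 5.77-fold above mock (adjusted p = 9.45e-08). Il1rn, the antagonist of its receptor, was at the floor in all mock arrays and at least 9.75-fold higher with genipin. Il33, an alarmin, was 5.08-fold above mock and 3.27-fold below LPS. Csf1, the macrophage growth factor, was 2.74-fold above mock and not called against LPS (adjusted p = 0.403). Of 13 cytokines and growth factors measured, 6 were called higher than mock and 3 lower. Igf1 was not called (log2 −0.16, adjusted p = 0.318), while Igfals, whose product carries IGF1 in plasma, was 3.30-fold below mock and 1.62-fold below LPS.

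Most interferon-stimulated genes were nearer to mock with genipin than with LPS alone. Of 32 measured, 27 were called higher and 1 lower than mock with LPS alone, and 29 were called lower with genipin than with LPS. With genipin 16 were still called higher than mock and 6 were called lower than mock. The list's median log2 difference from mock was 0.32 with genipin and 1.90 with LPS, against medians over all genes of −0.05 and −0.03. The 10 that stayed at least 2-fold away were all called back toward mock. Cmpk2, a mitochondrial nucleotide kinase, read 676, 596 and 665 in mock livers, 19046, 21968 and 19522 with LPS, and 1250, 1398 and 1483 with genipin. That left it 2.13-fold above mock (adjusted p = 2.14e-05) and 14.7-fold below LPS. Isg15, a ubiquitin-like modifier, was 2.27-fold above mock and 9.86-fold below LPS, and Rsad2 (viperin) 3.11-fold above and 9.81-fold below. Usp18, which removes ISG15, and the exonuclease Isg20 were 2.20-fold and 2.38-fold above mock. Ifit2 and Ifit3, which bind viral RNA, were outside the naming rule and were picked after their values were seen; they differed from LPS by −4.23 and −3.81 on the log2 scale and were 1.66-fold and 1.60-fold above mock.

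Ifi47, an interferon-inducible GTPase, read 5609, 5242 and 5611 in mock livers and 19996, 19351 and 20799 with genipin, 3.65-fold above mock, and it was saturated with LPS. Mx2, an antiviral dynamin-like GTPase, was 3.52-fold above mock and 1.86-fold below LPS. Of 7 guanylate-binding and immunity-related GTPases, 5 were called higher than mock and 1 lower, with a median of 1.25 against 2.44 for LPS. Gbp2 read 1104, 1127 and 1132, then 33799, 39008 and 36876, then 7347, 7768 and 8488 across mock, LPS and LPS plus genipin. It stayed 7.01-fold above mock (adjusted p = 4.89e-08) and was 4.65-fold below LPS. Irgm2 stayed 3.30-fold above mock, Gbp3 2.62-fold and Irgm1 2.37-fold, and Iigp1 was not called (log2 0.23, adjusted p = 0.0949).

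The promoters of Cxcl10 and Gbp2 are shown because these genes rose in both treated groups and were lower with genipin than with LPS. Each sequence is the 250 bases before the RefSeq start on GRCm38.p6, Cxcl10 at chr5:92348890-92349139 on the minus strand and Gbp2 at chr3:142620413-142620662 on the plus strand, read 5′ to 3′ along the gene. Capitals mark matches, on either strand, to the interferon-stimulated response element, a form of the NF-kB site, TGACTCA (AP-1) and TGACNNNGC (antioxidant response element), the last added after the values were seen; in Cxcl10 a match to TGACNNNGC overlaps the AP-1 match.
Cxcl10: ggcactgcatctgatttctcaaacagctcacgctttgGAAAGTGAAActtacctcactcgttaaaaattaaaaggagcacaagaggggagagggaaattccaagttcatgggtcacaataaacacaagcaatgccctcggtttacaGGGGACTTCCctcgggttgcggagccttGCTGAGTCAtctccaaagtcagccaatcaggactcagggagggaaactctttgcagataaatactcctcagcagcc
Gbp2: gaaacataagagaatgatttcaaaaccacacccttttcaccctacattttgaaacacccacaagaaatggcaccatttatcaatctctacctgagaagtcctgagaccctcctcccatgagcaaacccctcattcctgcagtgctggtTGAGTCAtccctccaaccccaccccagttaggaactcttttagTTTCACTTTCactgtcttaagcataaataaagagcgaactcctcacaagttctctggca
The interferon-stimulated response element was found in 978 of 32851 promoter windows (2.98%), in 219 of 7055 liver genes with a window (3.10%), and in 13 of 133 genes that were higher than mock and back toward it (9.77%). That NF-kB form was found in 0.323% of all windows, in 0.383% of liver genes with a window and in 5 of those 133 genes (3.76%). A match describes the letters of the window and does not show binding.

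Of 25 IRF, STAT and SOCS genes, 13 were called higher than mock and 5 lower. Socs3, the feedback inhibitor of interleukin 6 signalling, read 2954, 2897 and 3229 in mock livers, 35418, 37311 and 34533 with LPS, and 28457, 26814 and 26084 with genipin. Its level remained 8.96-fold above mock (adjusted p = 1.45e-08), 1.32-fold below LPS. Stat3, the factor that interleukin 6 activates, was 3.25-fold above mock and not called against LPS (adjusted p = 0.14). Socs1, which restrains interferon signalling, was 3.41-fold above mock and 2.41-fold below LPS. Cish, of the same family, went the other way: 3.02-fold above mock with genipin and 1.35-fold with LPS alone. Among 16 MHC class I and immunoproteasome genes, 7 were called higher and 4 lower than mock. Cd274, which encodes the checkpoint ligand PD-L1, was 4.92-fold above mock and the peptide transporter Tap1 2.11-fold, each called lower than with LPS.

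Acute-phase proteins could be followed only in part, because 10 of the 24 measured were saturated in both groups. None of the 24 was called lower than mock and 11 were called higher. Lcn2 (lipocalin 2), which withholds siderophore iron, read 8383, 7997 and 8708 in mock livers and was saturated in both treated groups, at least 7.80-fold above mock. Serpina3g read 456, 416 and 375 in mock livers, 15208, 15350 and 16442 with LPS, and 4938, 4530 and 4348 with genipin, so that it was 11.1-fold above mock and 3.40-fold below LPS. Serpina3f was 3.86-fold above mock; the Serpina3 genes form a family of close paralogs, and probes may share targets. Of 31 plasma protein genes, 13 were saturated in both groups, 5 were called higher and 4 lower. Serpina7, which encodes thyroxine-binding globulin, was 7.99-fold above mock, Igfbp1 4.71-fold and Apob 1.71-fold. Apoa4, an apolipoprotein of triglyceride-rich particles, was 1.85-fold above mock with genipin and not called with LPS alone (log2 0.04, adjusted p = 0.65).

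Calprotectin genes, which mark neutrophils, stayed high. S100a8 read 1562, 1973 and 1516 in mock livers, 43031, 46602 and 45350 with LPS, and 31562, 31898 and 28910 with genipin; it was 18.4-fold above mock (adjusted p = 3.94e-08) and 1.46-fold below LPS. S100a9 was 13.8-fold above mock and Retnlg 9.07-fold, so that all 3 of the neutrophil markers measured were called higher than mock and lower than LPS. Of 3 platelet markers, Pf4 was 3.03-fold and Ppbp 2.86-fold above mock, and Itga2b, chosen after its values were seen, was not called. Plac8, the 1 monocyte marker measured, was 1.73-fold above mock. The part of such cells in the results for chemokines and cytokines was not tested.

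Kupffer cell and macrophage markers went both ways, with 4 of 15 called higher than mock and 8 lower. Marco, a scavenger receptor, was 5.46-fold above mock, and Mrc1, the mannose receptor, was 2.27-fold below. Cd163, the haptoglobin-haemoglobin receptor, read 454, 459 and 375 in mock livers and 263, 263 and 278 with genipin, at or near the floor. Vsig4, a complement receptor of resident macrophages, read 5157, 5635 and 5733, then 5547, 6900 and 8792, then 3436, 3084 and 3007, so that only the genipin arrays lay below mock (1.74-fold, adjusted p = 0.00237).

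Of 15 genes of endothelial activation and quiescence, 5 were called higher than mock and 8 lower. Icam1, the leukocyte adhesion molecule, read 1062, 999 and 1120 in mock livers, 9361, 9789 and 8689 with LPS, and 14123, 14796 and 15394 with genipin. It was 13.9-fold above mock (adjusted p = 1.17e-08) and 1.59-fold above LPS. Angpt2, which destabilises vessels, was 2.62-fold above mock and did not pass the test against LPS (adjusted p = 0.896). Kdr, the VEGF receptor 2, read 3509, 3404 and 3814 in mock livers, 287, 392 and 289 with LPS, and 1400, 1440 and 1684 with genipin; it was still 2.38-fold below mock (adjusted p = 9.56e-05) and 4.71-fold above LPS. The LPS arrays of Kdr lay near the floor. Ptprb, the endothelial phosphatase VE-PTP, was 2.08-fold below mock and 3.10-fold above LPS, and Tek, the angiopoietin receptor, 1.93-fold below and 2.12-fold above. Of 11 sinusoidal endothelial markers, 7 were called lower than mock and 2 higher. Fcgr2b, the inhibitory Fc receptor, was 2.16-fold below mock, and Lyve1, the hyaluronan receptor, 4.90-fold above. Among 9 stellate cell and fibroblast markers 3 were called lower, Lrat, which stores retinol as ester, by 2.97-fold, and 1 higher.

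The largest fall was that of Nrep, a small protein first described in regenerating neurons. Nrep read 16643, 13143 and 15747 in mock livers, 1440, 1413 and 1357 with LPS, and 859, 1069 and 1039 with genipin, 15.3-fold below mock (adjusted p = 8.72e-08) and 1.42-fold below LPS. Cnmd (chondromodulin) was 8.69-fold below mock, Tk1 (thymidine kinase) 5.56-fold and Aspa (aspartoacylase) 5.40-fold, and none of these was called against LPS. G0s2, an inhibitor of the triglyceride lipase ATGL, was at the floor on every treated array and at least 5.99-fold below mock. Arrdc3, an arrestin-domain protein of receptor trafficking, recovered in part: 7227, 7361 and 7403 in mock, 294, 318 and 263 with LPS, and 1413, 1508 and 1590 with genipin, 4.88-fold below mock and 5.16-fold above LPS. The LPS arrays of Arrdc3 were at or near the floor, so its fold above LPS is a lower bound.

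Cyp7a1, the rate-limiting enzyme of the classical pathway, read 9595, 9665 and 10380 in mock livers, 506, 504 and 682 with LPS, and 1224, 1124 and 1204 with genipin. Its level was 8.34-fold below mock (adjusted p = 4.33e-07) and 2.12-fold above LPS. Cyp8b1, which sets the share of cholic acid, was 2.51-fold below mock and not called against LPS (adjusted p = 0.136). Nr0b2, the corepressor SHP that the bile acid receptor FXR induces, moved further from mock: 3145, 3120 and 2829 in mock, 864, 952 and 731 with LPS, and 378, 392 and 407 with genipin, 7.72-fold below mock and 2.15-fold below LPS. FXR itself (Nr1h4), chosen after its values were seen, was not called (log2 0.11 ± 0.056 SE, adjusted p = 0.122). Of 27 genes of bile acid synthesis, transport and control, 10 were called lower than mock and 5 higher, against 32.3% and 28.2% over all genes. Klb, the co-receptor for FGF15, was chosen after its values were seen and was 1.18-fold below mock and 3.74-fold above LPS.

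Hepatocyte nuclear receptors and transcription factors were lower in 15 of 28 and higher in 3. Nr1i3, the xenobiotic receptor CAR, was 3.23-fold below mock and 1.40-fold above LPS. Onecut1 (HNF6) was 2.58-fold and Mlxipl (ChREBP), the carbohydrate-responsive factor, 2.46-fold below mock, and neither was called against LPS. Nr1h2, the liver X receptor beta, was 2.51-fold above mock. Ppara, chosen after its values were seen, did not pass the test (log2 −0.16, adjusted p = 0.0627), and Hnf4a was saturated with genipin and not called.

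Of 48 cytochrome P450 and other phase I genes, 23 were called lower than mock and 4 higher. The fatty acid omega-hydroxylases Cyp4a14 and Cyp4a10, both PPARA targets, were further from mock with genipin. Cyp4a14 read 6210, 6813 and 6622 in mock livers, 3301, 3366 and 3301 with LPS, and 1024, 1096 and 1157 with genipin. That is 6.00-fold below mock (adjusted p = 2.88e-08) and 3.05-fold below LPS, and the corresponding folds for Cyp4a10 were 3.14 and 2.17. Adh4, an alcohol dehydrogenase, was 2.45-fold below mock and 1.30-fold above LPS, and Fmo2, a flavin monooxygenase, 3.43-fold below and 2.39-fold above, with another probe at 2.28-fold below mock. Among 38 conjugation enzymes, 15 were lower and 6 higher. Sult1e1, the oestrogen sulfotransferase, read 674, 752 and 760, then 2944, 3206 and 3028, then 6096, 5678 and 6654; it was 8.42-fold above mock (adjusted p = 4.08e-08) and 2.00-fold above LPS. Cyp2e1 and Sult1a1 were saturated in both groups.

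Of 40 genes of lipogenesis, cholesterol synthesis and lipoprotein handling, 26 were called lower and 6 higher, and of 42 genes of fatty acid oxidation and ketogenesis, 25 were lower and 6 higher, against 32.3% lower and 28.2% higher over all genes. Srebf1, the lipogenic transcription factor, was 2.87-fold below mock. Lss, which closes the sterol ring, was 2.56-fold below mock, and Dgat2, which makes triglyceride, 2.17-fold, and both were further from mock than with LPS. The Lss result rests on the probe chosen. Another probe gave 1.48-fold below mock, under the 2-fold limit, and a log2 difference of LPS from mock of 0.08. Abca1, the cholesterol exporter, was 2.53-fold above mock. The acyl-CoA thioesterases Acot3 and Acot4 were 3.88-fold and 2.84-fold below mock, while Acot2 was new, 2.25-fold above it. Acot2 read 289, 263 and 270 in mock livers and 300, 264 and 275 with LPS, at or near the floor. Its fold is thus read as a lower bound. The carnitine acetyltransferase Crat was 2.15-fold below mock and not called against LPS.

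Of 50 genes of amino acid catabolism and the urea cycle, 26 were lower and 3 higher. Ddc, the aromatic amino acid decarboxylase, was 2.45-fold below mock and 4.49-fold above LPS. Hal (histidine ammonia-lyase) was 2.41-fold and Bcat2, a branched-chain transaminase, 2.10-fold below mock, and for Shmt1, which makes one-carbon units, 2 probes differed (log2 −1.18 and −2.24). Of 33 glucose genes, 15 were lower and 7 higher. Pdk4, which shuts pyruvate out of the mitochondrion, read 637, 861 and 688 in mock livers, 5830, 5355 and 4303 with LPS, and 5912, 5708 and 5923 with genipin; it was 8.09-fold above mock, and its treated groups did not differ past the threshold (adjusted p = 0.274). Pfkfb3, an activator of glycolysis, was 7.56-fold above mock and 1.67-fold below LPS, and Pfkfb1, the liver form, 2.72-fold below mock. Slc2a1 (GLUT1) was new, at 2.67-fold over mock.

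Of 36 NRF2 targets and glutathione genes measured, 24 were called higher than mock and 2 lower, against 28.2% and 32.3% over all genes. With LPS alone, against the same mock arrays, 9 were called higher and 17 lower, against 29.2% and 36.7% over all genes. The median log2 difference from mock was 0.46 with genipin and −0.17 with LPS. Srxn1 (sulfiredoxin), which repairs overoxidised peroxiredoxins, read 1459, 1537 and 1567 in mock livers, 2083, 1946 and 1689 with LPS, and 18337, 18632 and 18632 with genipin. The genipin arrays stood clear of both other groups, at 12.2-fold above mock (log2 3.61 ± 0.076 SE, adjusted p = 2.40e-08) and 9.76-fold above LPS (adjusted p = 1.08e-07), and the 2 other probes of the gene gave log2 differences from mock of 3.81 and 3.62. Hmox1 (heme oxygenase 1) read 4736, 3968 and 4649, then 10270, 9501 and 9492, then 37966, 37868 and 37311, so that it rose with LPS and rose 3.87-fold further with genipin, to 8.50-fold above mock. Sqstm1 (p62), the autophagy receptor that binds KEAP1, was 3.66-fold above mock and 3.01-fold above LPS, and Txnrd1 (thioredoxin reductase 1) 3.59-fold and 1.79-fold.

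Gclc, the catalytic subunit of glutamate-cysteine ligase, the limiting step of glutathione synthesis, is one of 5 that were new. It was 4.44-fold below mock with LPS (adjusted p = 7.73e-05) and 2.10-fold above mock with genipin (adjusted p = 0.00393), a difference of 9.34-fold between the treatments. Ugdh, which makes UDP-glucuronate for conjugation, read 1385, 1422 and 1392 in mock livers, 766, 810 and 635 with LPS, and 4282, 3791 and 5804 with genipin, 3.25-fold above mock and 6.21-fold above LPS. Pgd, an NADPH-producing enzyme of the pentose phosphate pathway, was 2.61-fold above mock, and the glutathione transferase Gstm3, which was not called with LPS alone (log2 0.17, adjusted p = 0.0731), 2.18-fold. Gclm, the modifier subunit, stayed within 2-fold of mock, 1.64-fold above it, and was 3.35-fold above LPS, and Nfe2l2, which encodes NRF2, was 1.49-fold above mock and 2.09-fold above LPS. Gclc, Gclm, Pgd and Nfe2l2 were outside the naming rule and were picked after their values were seen. Prdx1 was saturated in both groups.

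**Figure D3:**
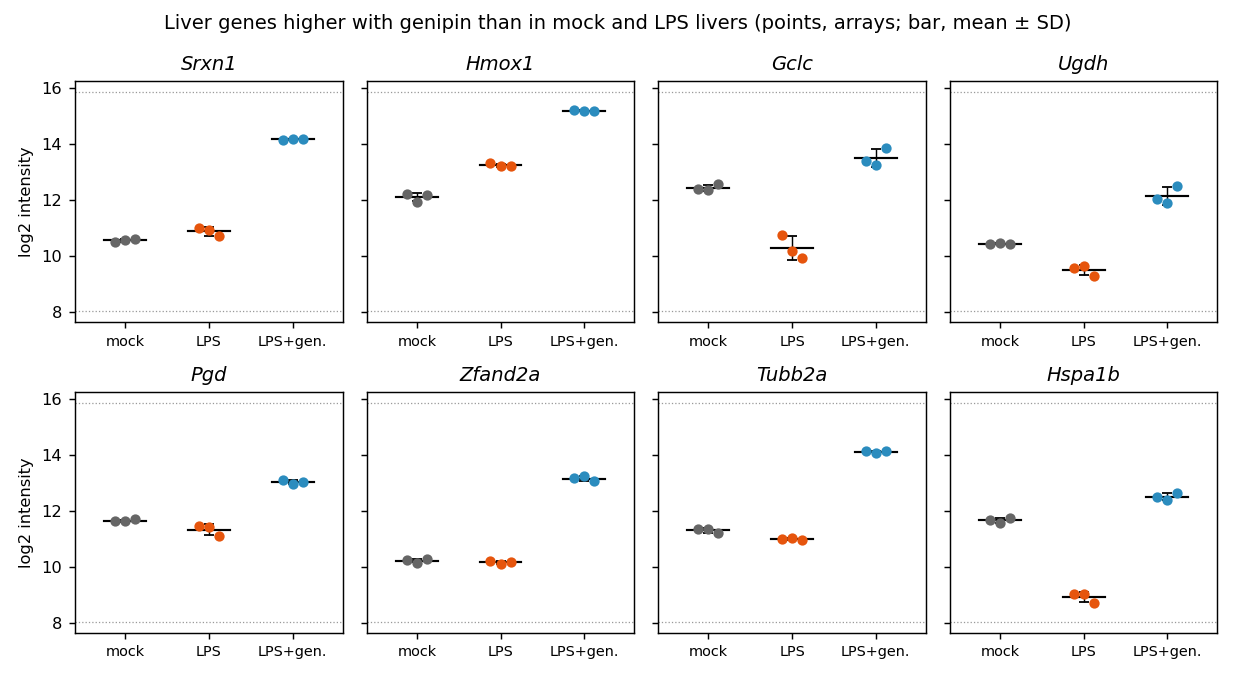
log2 intensity of 8 liver genes that were higher with LPS plus genipin than in mock and in LPS livers, with 1 point per array, the mean as a bar and the SD as whiskers; dotted lines mark the floor of 262.7 and the saturation limit of 60000. All 3 genipin points lie above all mock and LPS points in each panel, and in the panels of Gclc, Ugdh, Tubb2a and Hspa1b the LPS points lie below mock.

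The promoters of Srxn1 and Ugdh, 2 genes of the antioxidant list, are shown with matches to TGACTCA (AP-1) in the first and to TGACNNNGC (antioxidant response element) in the second in capitals, on either strand. Only this form of the antioxidant response element was searched. The lack of a match to it in Srxn1 therefore does not show that the element is absent there. Srxn1 is at chr2:152105274-152105523 on the plus strand and Ugdh at chr5:65435843-65436092 on the minus strand of GRCm38.p6, from RefSeq.
Srxn1: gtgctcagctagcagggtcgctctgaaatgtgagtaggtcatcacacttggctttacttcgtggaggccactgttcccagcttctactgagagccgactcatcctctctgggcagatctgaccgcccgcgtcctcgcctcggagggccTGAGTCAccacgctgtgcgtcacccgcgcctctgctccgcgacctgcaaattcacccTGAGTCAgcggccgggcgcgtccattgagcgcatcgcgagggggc
Ugdh: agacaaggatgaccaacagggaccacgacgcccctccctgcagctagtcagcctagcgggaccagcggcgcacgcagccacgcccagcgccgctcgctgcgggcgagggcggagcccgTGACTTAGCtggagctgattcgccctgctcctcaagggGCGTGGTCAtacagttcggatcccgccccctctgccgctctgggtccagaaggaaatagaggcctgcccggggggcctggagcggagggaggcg
TGACTCA was found in 1466 of 32851 windows (4.46%) and in 4.21% of liver genes with a window. It was found in 10 of 156 genes that were higher and further from mock than with LPS (6.41%). Among genes higher and back toward mock the count was 10 of 133 (7.52%). TGACNNNGC was found in 10.2% of all windows, in 14.1% of liver genes with a window and in 15.2% of the new higher genes with a window (7 of 46). Among the 156 genes higher and further from mock it was found in 22 (14.1%), the share of liver genes.

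The new higher genes were led by Zfand2a, a zinc-finger protein (AIRAP) that associates with the proteasome under proteotoxic stress. Zfand2a read 1204, 1140 and 1240 in mock livers, 1184, 1105 and 1152 with LPS, and 9231, 9717 and 8552 with genipin. Mock and LPS arrays overlapped (adjusted p = 0.423), and the genipin arrays were 7.67-fold above mock (log2 2.94 ± 0.061 SE, adjusted p = 2.31e-08). Tubb2a, a beta-tubulin, read 2631, 2605 and 2368, then 2040, 2091 and 1994, then 18034, 17454 and 18102, 7.05-fold above mock (adjusted p = 1.32e-08) and 8.75-fold above LPS. Tuba1c, an alpha-tubulin, was also new, 2.61-fold above mock. Of 8 tubulin genes measured, 3 were called higher and 2 lower than mock; Tuba1a was not called (log2 −0.19, adjusted p = 0.144), and 2 probes of Tubb5 disagreed in sign. The tubulins other than Tubb2a were picked after their values were seen.

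Zfand2a and Tubb2a, the 2 new genes with the largest rise, are shown with the capitals marking TGACGTCA, the cAMP response element, on either strand, in the 250 bases before the RefSeq start on GRCm38.p6. Zfand2a is at chr5:139484492-139484741 and Tubb2a at chr13:34078009-34078258, both on the minus strand.
Zfand2a: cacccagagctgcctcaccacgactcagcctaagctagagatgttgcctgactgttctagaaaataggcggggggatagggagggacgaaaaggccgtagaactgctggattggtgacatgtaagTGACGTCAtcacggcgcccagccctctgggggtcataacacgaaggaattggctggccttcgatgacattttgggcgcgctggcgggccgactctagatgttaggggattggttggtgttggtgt
Tubb2a: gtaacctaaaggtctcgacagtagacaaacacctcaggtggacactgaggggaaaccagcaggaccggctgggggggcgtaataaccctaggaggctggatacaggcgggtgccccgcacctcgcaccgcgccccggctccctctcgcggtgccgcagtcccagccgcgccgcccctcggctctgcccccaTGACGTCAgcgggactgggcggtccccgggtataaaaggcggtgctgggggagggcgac
TGACGTCA was found in 508 of 32851 windows (1.55%), in 196 of 7055 liver genes with a window (2.78%), in 5 of 46 new higher genes (10.9%) and in 10 of 156 genes further from mock and higher (6.41%). The heat-shock element was found in none of the 46 new higher genes, in 2 of 156 genes further from mock and higher (1.28%) and in 0.482% of liver genes with a window. At so low a background share, finding none among 46 genes cannot show that the element is lacking. These shares are descriptions of gene sets chosen by their values and carry no test.

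Tmprss2, a membrane serine protease, read 542, 467 and 463 in mock livers, 410, 468 and 436 with LPS, and 2521, 2428 and 2400 with genipin, 5.01-fold above mock (adjusted p = 1.94e-07). Ccn1 (CYR61), a matricellular protein and target of YAP, read 391, 376 and 403, then 327, 290 and 263, then 1434, 1455 and 1850, 4.03-fold above mock and 5.38-fold above LPS. The LPS arrays of Ccn1 were at or near the floor, so its fold above LPS is a lower bound. Slc10a2, the ileal bile acid transporter ASBT, was at the floor on all mock and LPS arrays and read 880, 898 and 859 with genipin, at least 3.34-fold above both. The chromatin remodeller Chd1 was 3.39-fold above mock, the nucleolar protein Nop56 3.17-fold, and Nrsn1, a neuronal membrane protein, 4.08-fold. Chd1 read 285, 304 and 264 in mock livers, near the floor. Aox1, an aldehyde oxidase picked after its values were seen, was above mock (log2 1.25) and below mock with LPS (log2 −0.62).

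Of 23 heat-shock chaperones measured, 5 were called higher and 15 lower than mock with LPS alone, against 29.2% and 36.7% over all genes. With genipin 9 were called higher and 7 lower than mock, against 28.2% and 32.3%. Between the treatments 18 were called higher with genipin than with LPS and none lower, against 29.3% and 24.8%. Bag3, a co-chaperone, read 1999, 2051 and 1957 in mock livers, 5440, 4930 and 4618 with LPS, and 8190, 7816 and 8844 with genipin, 4.13-fold above mock (adjusted p = 2.97e-07). Hspa1b, an inducible HSP70 picked after its values were seen, read 3267, 3044 and 3440, then 529, 520 and 422, then 5749, 5420 and 6387; it was 1.80-fold above mock and differed from LPS by 3.58 on the log2 scale. Hspa2 was 2.61-fold and Hspb8 2.16-fold above mock, and Fkbp4, an HSP90 co-chaperone of steroid receptors, was 2.23-fold below. In the unfolded protein response list, 7 of 26 were called higher and 7 lower, or 53.8% called against 60.5% over all genes. Dnajb9 (ERdj4) was 4.24-fold above mock and not called against LPS (adjusted p = 0.201), Eif2ak3 (PERK) was 4.05-fold above mock, and Sdf2l1, an ER chaperone partner, was new and 2.20-fold below.

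Of 33 immediate early and dual-specificity phosphatase genes, 24 were called higher and 2 lower, and 18 were at least 2-fold higher; 8 moved further from mock and 4 were new. Outside that list, Tnfrsf12a, the receptor of TWEAK, read 448, 426 and 399 in mock livers, 1924, 1794 and 1627 with LPS, and 8526, 8898 and 7578 with genipin, 19.6-fold above mock (adjusted p = 1.92e-08) and 4.68-fold above LPS. Rcan1, an inhibitor of calcineurin, read 3446, 3580 and 3617, then 5635, 5668 and 4931, then 28962, 25553 and 28394, 7.78-fold above mock and 5.11-fold above LPS. Within it, Gadd45a, a DNA damage and stress gene, was 10.2-fold above mock and 2.94-fold above LPS, Gadd45b 10.8-fold and 1.37-fold, the zinc-finger factor Klf6 8.50-fold and 1.72-fold, and Mafk, a small MAF partner of NRF2, 6.88-fold and 2.06-fold. Clasp2, a microtubule plus-end protein in no list, was 9.76-fold above mock and 3.61-fold above LPS, and the HSP40 protein Dnajb8 5.39-fold and 3.07-fold.

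Of 18 genes of cell death, p53 and the cell cycle, 15 were called higher than mock and 1 lower. Cdkn1a (p21) read 1689, 1539 and 1698 in mock livers, 14796, 14867 and 14397 with LPS, and 18280, 19218 and 18429 with genipin, 11.4-fold above mock and 1.27-fold above LPS. Mdm2, the p53 ligase, was 3.78-fold above mock and 2.27-fold above LPS, Plk3 4.38-fold above mock, and Mlkl, the executioner of necroptosis, 3.39-fold above mock and 1.78-fold below LPS. Of 32 ATF4 targets and tRNA synthetases, 21 were called higher and none lower, with a median of 0.42 against 0.49 for LPS. Gdf15, a stress cytokine, was 7.62-fold above mock and not called against LPS (adjusted p = 0.0793), Nupr1 4.27-fold, Ddit4 6.24-fold and 1.77-fold below LPS, and Ppp1r15a, a phosphatase subunit that restores translation, 3.64-fold and 1.38-fold above LPS. In the list of glucocorticoid-responsive genes and metallothioneins 16 of 23 were called higher and 1 lower; 4 of its leading genes, Cdkn1a, Gadd45b, Sult1e1 and Pdk4, belong to other lists too, and Mt1 and Mt2 were saturated.

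Of 14 clock genes 6 were higher and 6 lower, or 85.7% called against 60.5% over all genes. Per3 was 4.64-fold below mock and not called against LPS. Dbp was 2.98-fold below mock and 1.98-fold above LPS, and the repressor Nfil3 was 2.92-fold above mock. Of 26 iron genes 12 were higher and 4 lower (61.5% called, near the 60.5% over all genes). Steap4, a metalloreductase, was 7.96-fold above mock, and the iron exporter ferroportin (Slc40a1), named after its values were seen, read 43544, 42269 and 44574 in mock livers, 4809, 5618 and 4612 with LPS, and 32120, 32357 and 32650 with genipin. It was thus 1.34-fold below mock and 6.48-fold above LPS. Complement genes were called in 7 of 24 (29.2%), with the decay-accelerating Cd55 2.69-fold above mock. Coagulation genes were called in 10 of 21 (47.6%), with thrombomodulin (Thbd) 2.10-fold above mock and plasma prekallikrein (Klkb1) 1.68-fold below. Both shares were below the 60.5% over all genes. Of 34 oxidative phosphorylation genes 12 were lower (35.3%, near the 32.3% over all genes) and none higher (against 28.2%). Ndufb3 was the one at 2-fold (2.02-fold below mock). Hepatic solute carriers were called higher in 16 of 38 and lower in 16 (84.2% called). Slc41a2, a magnesium transporter, led them at 5.04-fold above mock.

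**Figure D4:**
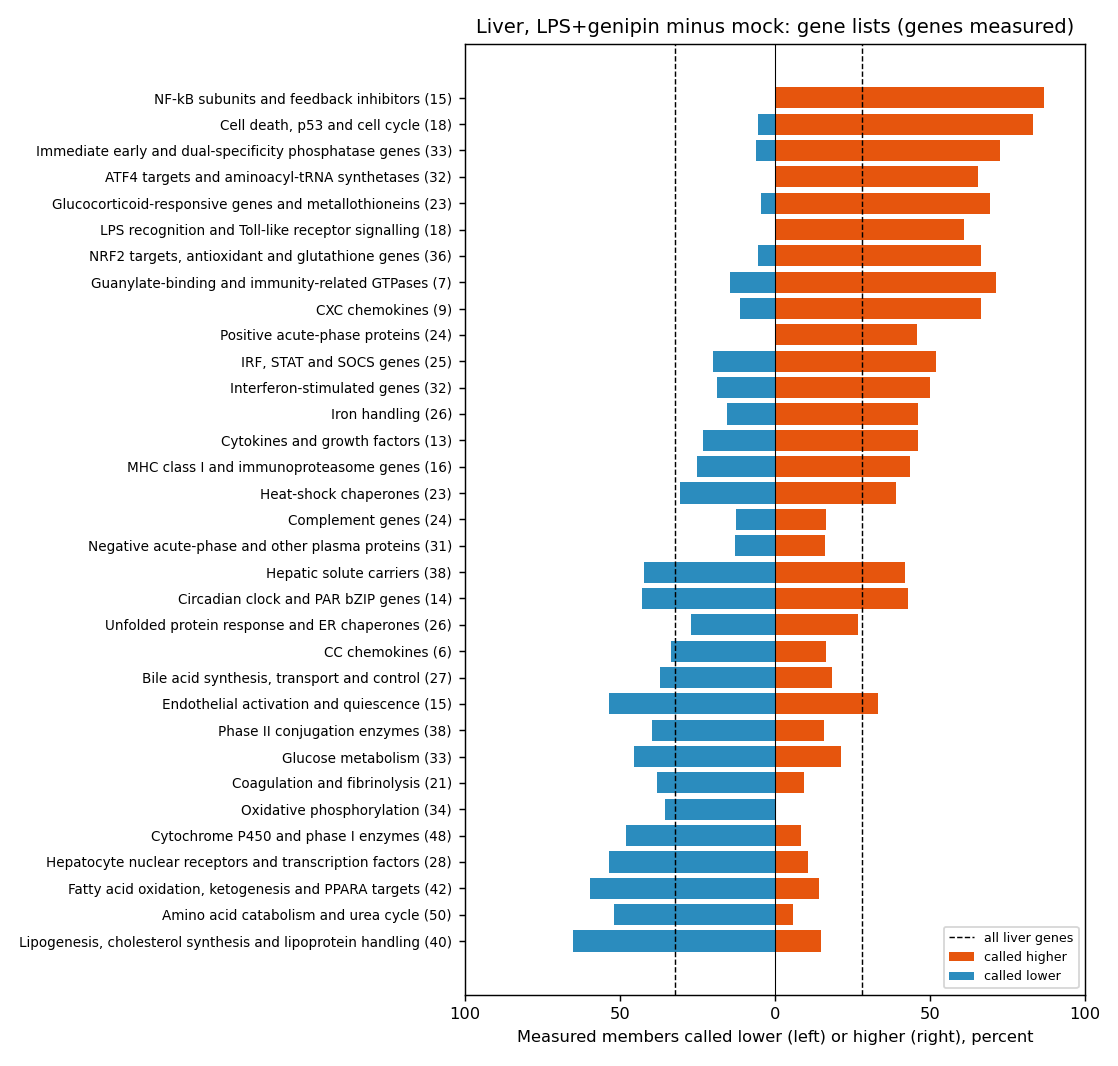
Percent of the measured members of each of 33 gene lists that were called lower (bars to the left) or higher (bars to the right) in LPS plus genipin minus mock in liver, with the number measured in parentheses; dashed lines mark the shares over all liver genes, 32.3% lower and 28.2% higher. The NF-kB, cell death and immediate early lists are mostly higher, the lipid, amino acid and nuclear receptor lists are mostly lower, and the complement list is called less than the background in both directions.

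Among the new lower genes, Csta2, a cystatin, read 8178, 9564 and 8353 in mock livers, 12070, 11804 and 19218 with LPS, and 2734, 744 and 1479 with genipin, 6.01-fold below mock (log2 −2.59 ± 0.43 SE, adjusted p = 0.00109). The groups did not overlap, and the genipin arrays ranged from 744 to 2734. Rai1, a chromatin-associated regulator, read 4329, 5452 and 7264, then 7225, 8526 and 14457, then 2043, 1248 and 1488, 3.56-fold below mock. Sting1, the sensor of cyclic dinucleotides, read 2556, 2002 and 2093, then 2502, 2969 and 4150, then 963, 632 and 524, 3.23-fold below mock (adjusted p = 0.000693). Fbxo32 (atrogin-1) was 3.09-fold below mock, the kinesin Kifc2 3.40-fold and the T-box factor Tbx5 2.84-fold. LPS replicate 3 was the highest LPS array for each of these 6 genes. It was not for Baz2b, also among the leading new lower genes, whose LPS arrays read 1194, 730 and 1113.

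Genes named as olfactory, vomeronasal or taste receptors or beta-defensins were grouped after their values were seen, and 71 were measured. Of them, 23 were called lower than mock with genipin (32.4%, against 32.3% over all genes) and 3 higher. With LPS alone 38 were called higher (53.5%, against 29.2%) and 4 lower, and 48 were called lower with genipin than with LPS (67.6%, against 24.8%). Their median log2 level was 9.08, 9.18 and 9.17 on the mock arrays, 9.47, 9.51 and 10.07 with LPS, and 9.12, 8.79 and 8.62 with genipin. This family holds 9 of the 60 new lower genes, among them Defb15, Olfr275 and Olfr677, and none of the 57 new higher genes. Markers of cells foreign to liver parenchyma were also counted with genipin. Called lower than mock were 2 of 2 for red blood cells, 2 of 4 for skeletal muscle and 3 of 3 for gut epithelium. For the exocrine pancreas 1 of 5 was called lower, and none in these lists was called higher. The 1 adipocyte marker measured, Fabp4, was called higher, 2.39-fold above mock. Aqp2, the 1 kidney tubule marker measured, was at the floor in both groups and not called. With LPS alone, 2 of the 3 gut markers were already called lower, while 4 of the 5 pancreas markers were called higher and 1 lower. Red blood cell markers had 1 of 2 called higher with LPS, and skeletal muscle markers 1 of 4 higher and 1 lower. Fabp4 and Aqp2 were called higher with LPS. The part of the family's shift between the treated groups in the new lower genes was not tested, nor was whether that shift is technical. Without the arrays numbered 3 of both treated groups, a choice made after seeing the data, 910 genes were away from mock, 808 stayed away, and 99 were new, 49 higher and 50 lower.

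The liver difference between LPS plus genipin and mock was also set against the mean of the same difference in brain, heart and kidney, which have their own mock arrays. Of 6861 genes measured in all tissues, 3975 (57.9%) departed, and 645 of the 672 that were away from mock in liver did. The same liver difference chose those 672 and enters the departure, so a high share was built in. The 2 shares therefore do not compare like with like. Tnfrsf12a rose in liver by 4.29 on the log2 scale, and the differences were 1.03 in kidney, −0.20 in brain and −0.82 in heart. Srxn1 differed by 3.61 in liver and 2.34 in kidney, and was not called in brain (−0.18, adjusted p = 0.514) or heart (−0.27, adjusted p = 0.219). Rcan1 rose by 2.96 in liver, was called lower in heart (−0.33, adjusted p = 0.00337) and was not called in brain or kidney. Clasp2 rose by 3.29 in liver and 1.14 in brain, and Tubb2a rose by 2.82 in liver and 0.42 in kidney with −0.52 in heart. Among lower genes Fcgr2b had opposite signs, −1.11 in liver and 2.37 in heart, and Arrdc3 likewise, at −2.29 in liver and 0.79 in heart.

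**Figure D5:**
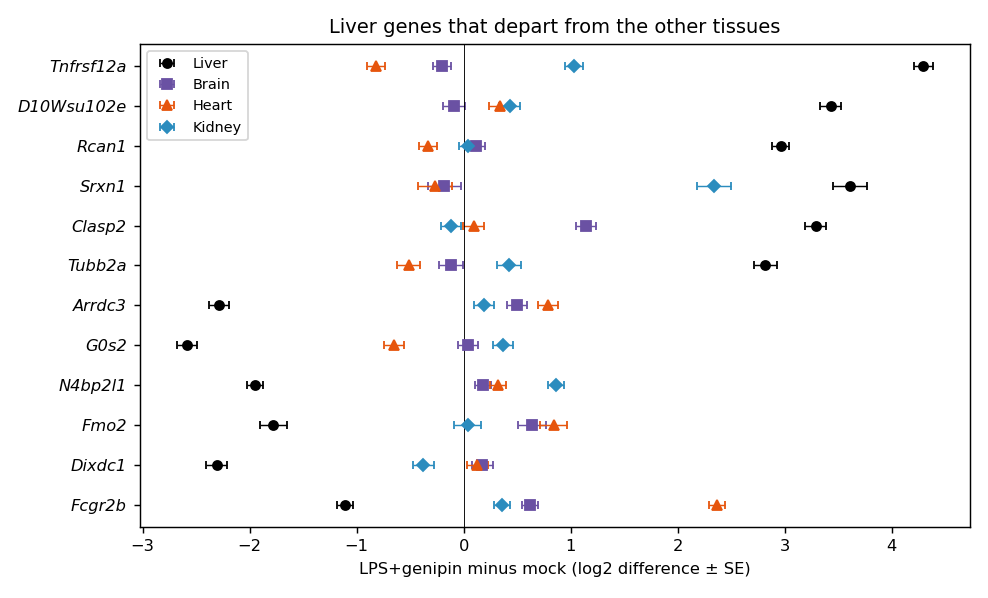
log2 difference of LPS plus genipin from mock (points, with SE whiskers, 3 arrays per group) in liver, brain, heart and kidney for the 6 genes with the largest departure of liver in each direction. The liver points of the upper 6 genes lie between 2.82 and 4.29 and to the right of all other tissues. Those of the lower 6 lie between −2.58 and −1.11 and to the left of all other tissues. G0s2 is at the floor in treated liver and Fmo2 in a brain group, so their departures are bounds. Dixdc1 read 263, 263 and 267 in LPS plus genipin livers, at or near the floor.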

How the data were processed

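The deposited values are linear intensities of 1-colour Cy5 arrays in a table of processed values. The submitters' processing notes name limma, and the authors' method of normalization is not known here. Sorted intensities differed between the liver arrays by 0.80% or less at nearly all ranks, so the arrays share almost 1 distribution. A shift common to most genes would not show in such values, and the counts of higher and lower genes are tied to each other. Of 18183 probes, 14817 had 1 gene symbol and 3366 none, from the platform annotation (old symbols updated through RefSeq); 11879 were measured in liver and 6304 were missing there. Intensities were raised to a floor, the 5th percentile of all deposited values (262.7), and taken to log2. Each gene was represented by the probe with the highest liver mean, leaving 8641 genes, of which 1146 had several probes. Mock, LPS and LPS plus genipin liver arrays (3 each) were fitted with limma 3.58.1 (R 4.3.3, lmFit and eBayes, no block) and p-values adjusted by Benjamini-Hochberg over all genes; the fit was tested on simulated data. The number of arrays limits the precision. The tissue comparison used all 36 arrays. Genes were named by rule: among called genes whose groups did not overlap, the 12 largest rises and falls, the 8 each way that stayed away, the 6 each way further from or back toward mock, the 10 each way that were new, the 4 leading members of each list with its most abundant member if not called, and the 6 each way that departed from other tissues; exceptions are stated. The members and gene lists were chosen with earlier results of these data known. Replicate numbers did not pair the arrays: deviations of same-numbered mock and LPS plus genipin arrays correlated at −0.09, 0.08 and 0.11, of mock and LPS arrays at −0.05, −0.06 and −0.03, and of LPS and LPS plus genipin arrays at −0.47, 0.06 and −0.52. Promoter windows came from RefSeq (GRCm38.p6).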

Additional observations from a re-analysis of the deposited data

Results flagged for a closer look

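For 12 genes that were away from mock in liver, the difference between LPS plus genipin and mock departed from the mean of the other 3 tissues, by a limma interaction contrast over all arrays. The departures that were higher in liver, on the log2 scale, were 4.29 for Tnfrsf12a, 3.20 for D10Wsu102e, 3.02 for Rcan1, 2.98 for Srxn1, 2.92 for Clasp2 and 2.89 for Tubb2a. The departures that were lower in liver were −2.78 for Arrdc3, −2.50 for G0s2, −2.41 for N4bp2l1, −2.28 for Fmo2, −2.28 for Dixdc1 and −2.23 for Fcgr2b. G0s2 and Fmo2 are read as bounds because a group lay at the floor. Dixdc1 read 263, 263 and 267 in LPS plus genipin livers, at or near the floor. The adjusted p of Tnfrsf12a was 8.63e-24. These 12 were the largest among genes called and at least 2-fold from mock in liver, and 57.9% of all genes tested departed at the same threshold. Their choice used the same liver difference that enters the departure.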

How the results depend on the processing

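Adding the floor value to every intensity in place of the floor, which shrinks the folds of dim genes by construction, left 572 genes away from mock (203 of them lower), 518 staying away (144 with no call against LPS) and 52 new (28 higher, 24 lower). Fitting all 36 arrays together kept only the 6861 genes measured in every tissue and gave 220 lower genes, 173 staying away with no call against LPS and 29 new lower genes. Leaving out 1 array at a time gave 4629 to 5464 called genes (2188 to 2523 higher, 2441 to 2941 lower), 892 to 939 away from mock (535 to 570 higher, 344 to 373 lower), 764 to 805 staying away (262 to 323 not called, 219 to 238 further, 246 to 274 back toward mock), 102 to 148 new (52 to 69 higher, 49 to 89 lower), and 3731 to 3796 genes departing from the other tissues. The replicate block, for numbers that do not pair the arrays, gave 4920 called genes, 897 away, 765 staying away and 128 new. Single genes changed sign in 6 comparisons, counting only values called in the main or the altered fit. Sign changes between values called in neither fit were not counted. With the probe of the highest mean over all 36 arrays, Car5b was at 0.0195 against mock and 0.2034 against LPS. The same choice put Lss at 0.0777 for LPS minus mock. With the mean of all probes, Pck1 was at −0.1314 against LPS, and in the fit of all 36 arrays Lgals4 was at 0.0362 against LPS. Alas2 was at 0.2459 for LPS minus mock without LPS replicate 3, alone or with LPS plus genipin replicate 3. It lay between −0.2018 and 0.2459 when 1 array was left out. The cause was not tested. Saturated and floored probes limit what can be said of the most abundant acute-phase and plasma proteins and of the dimmest genes.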
